A study of Rattus norvegicus with 7 samples.

Results

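Acetylation of histone H3 at lysine 27 (H3K27ac) marks active enhancers and promoters, and 48763 of the 99514 H3K27ac peaks of the rat Schwann cell line S16 held no peak of any of 5 mapped transcription factors. These factor-free peaks were chosen by position alone: a peak belonged to them when it shared not even 1 bp with a peak of NR2F2, YY1, RXRG, TEAD1 or SREBP1. They made up 49.0% of the list (95% Wilson interval 48.7 to 49.3%, which covers counting error only), against 50751 peaks that held at least 1 factor. They were narrower than the factor-holding peaks and were not more isolated along the genome. In the median they stood about as far from the nearest factor-holding peak as factor-holding peaks stood from each other. The small difference in that distance changed sign when the NR2F2 list was left out.

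The series has 7 samples, of which 6 came with a peak list. H3K27ac was mapped by ChIP-seq in untreated S16 cells. CUT&RUN, where a nuclease is directed to the protein by an antibody and the released DNA is sequenced, was used in the same untreated line for NR2F2, YY1, RXRG and TEAD1. SREBP1 was mapped by ChIP-seq in wild-type sciatic nerve at postnatal day 15. The nerve is whole tissue, so that its list describes another source of chromatin than a cultured line, and its input library was not used here. Each target had 1 library, so that there is no replicate error. No test between conditions was possible, and the agreement between the 21 placed chromosomes (1 to 20 and X) is given in place of a replicate spread. Chromosomes share the library and are not replicates.

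Acetyl groups are placed on H3K27 by the coactivators p300 and CBP, which are brought to DNA by sequence-specific factors. NR2F2 is an orphan nuclear receptor. RXRG is a retinoid X receptor, the class that pairs with many other nuclear receptors. YY1 is a zinc finger protein found at promoters and enhancers and is needed for peripheral myelination. TEAD1 binds DNA for the Hippo pathway coactivators YAP and TAZ, and SREBP1 activates genes of lipid synthesis, a large part of the work of a myelinating Schwann cell. SOX10, the lineage factor of Schwann cells, was not analysed here, so that "no factor" means none of these 5 lists.

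The factor lists differed in size and in the room each peak takes, which bears on how many H3K27ac peaks each can reach. RXRG had 47935 peaks outside the mitochondrial genome with a median width of 184 bp, NR2F2 41812 (303 bp), YY1 38704 (439 bp), SREBP1 29435 (485 bp in every peak) and TEAD1 26404 (302 bp). Read depth is unknown, and no control library for CUT&RUN was used here, so that a factor bound below the calling threshold cannot be told apart from one that is not bound. Leaving 1 list out of the rule showed what each contributed. Without NR2F2, 6745 more H3K27ac peaks would have counted as factor-free, the largest gain of the 5. The gain was 4863 without YY1, 4439 without RXRG, 2569 without SREBP1 and 1276 without TEAD1.

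Factor-free peaks were short stretches of acetylation. Their median width was 497 bp (quartiles 290 and 932 bp), against 980 bp (562 and 1533 bp) in factor-holding peaks. The 2 distributions overlapped broadly, and the median was lower in factor-free peaks on 21 of 21 chromosomes. The rule itself favours this direction, since a wide interval overlaps others more easily, and the difference was not tested. Factor-free peaks covered 33.3 Mb, and factor-holding ones 58.7 Mb, so that 36.2% of all acetylated sequence lay in peaks without a factor.

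The narrowest calls were mostly factor-free. The smallest width in the H3K27ac list was 231 bp, and 4894 peaks had exactly this width, of which 80.6% held no factor. Such peaks were 8.09% of the factor-free and 1.87% of the factor-holding group. Of the peaks up to 250 bp wide, 7118 were factor-free and 1792 held a factor. The share without a factor was 73.7% in the narrowest of 4 equally filled width classes (231 to 367 bp), 53.4% in the second (368 to 737 bp), 43.6% in the third (738 to 1233 bp) and 25.3% in the widest (1234 to 9902 bp). More than a fringe of minimal calls was involved: 10626 factor-free peaks, 21.8% of them, were at least 1000 bp wide, against 24830 factor-holding peaks (48.9% of theirs).

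**Figure D1:**
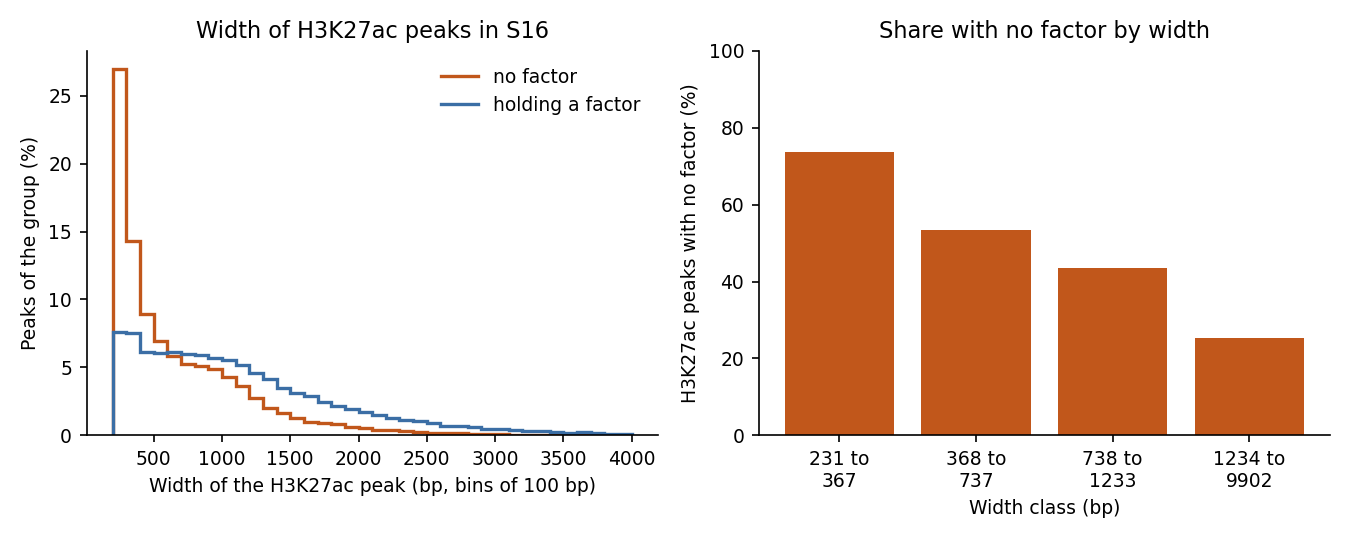
Left, width of H3K27ac peaks in bins of 100 bp from 200 to 4000 bp, as the percentage of the factor-free (orange) and factor-holding (blue) peaks. Right, percentage of H3K27ac peaks with no factor in 4 equally filled width classes. Bins from 200 to 300 bp held 26.96% of factor-free and 7.61% of factor-holding peaks, and the share with no factor was 73.7% in the narrowest class and 25.3% in the widest.

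A few broad domains of acetylation also held none of the factors. There were 1359 factor-free peaks of at least 2000 bp, against 6828 factor-holding ones, and 9 of at least 4000 bp, against 372. The widest was on chromosome 3 at 62405318 to 62410573 (5256 bp, build rn5, positions counted from 1). Its nearest neighbour in the H3K27ac list lay 4802 bp away and held a factor, and the nearest factor peak, of TEAD1, was 7410 bp away. The second, on chromosome 3 at 181699991 to 181704806 (4816 bp), had all 5 factors at 4815 to 5790 bp from its edge. The next 2 were on chromosome 9, at 80958032 to 80962553 (4522 bp) and at 100220908 to 100225250 (4343 bp). The fifth was on chromosome 2 at 82424555 to 82428858 (4304 bp), with RXRG the nearest factor at 10889 bp and the other 4 at 23441 to 24249 bp. These stretches are named by position, since neither genes nor sequence on rn5 were used here.

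Factor-free peaks lay closer to their neighbours than factor-holding peaks did. The median gap between the edges of a peak and the nearest other H3K27ac peak was 5016.5 bp for factor-free peaks (quartiles 2418 and 9409.5 bp), against 6183.5 bp for factor-holding peaks (3822 and 12843.8 bp). The quartile ranges overlapped, and the median gap was shorter for factor-free peaks on 21 of 21 chromosomes, with differences of -219.5 bp (chromosome 19) to -2010 bp (chromosome 18) on the autosomes and -6863.5 bp on X. The difference over all peaks was -1167 bp, and it was -247 bp when H3K27ac peaks were first joined across gaps of up to 4 kb. On short unplaced sequences, 77 factor-free and 41 factor-holding peaks had no other peak and gave no gap. The gap of factor-holding peaks grew with the number of factors. Its medians were 5779 bp for 1 factor, 6076 bp for 2, 6348 bp for 3, 6682.5 bp for 4 and 7367 bp for all 5. The median gap to the nearest other factor-holding peak did not grow in this way (11562.5, 10996, 10188, 10581 and 11459 bp). Peaks with all 5 factors hold NR2F2 by definition, and the growth was not examined apart from NR2F2.

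The difference was largest against peaks that held NR2F2. The 25415 H3K27ac peaks with NR2F2 had a median gap of 7236 bp, and the 25336 peaks that held some other factor but not NR2F2 had one of 5484 bp. Factor-free peaks differed in median gap by -2219.5 bp from peaks with NR2F2 and by -467.5 bp from peaks with other factors only, with the same direction on 21 and on 20 of 21 chromosomes. Peaks with a single factor separated in the same way. The median gap was 8856.5 bp for NR2F2 alone, against 5454 bp for RXRG alone, 5397 bp for SREBP1 alone, 5165.5 bp for TEAD1 alone and 4972 bp for YY1 alone. The factor-free median of 5016.5 bp was below that of NR2F2 alone on 21 of 21 chromosomes, and below that of YY1 alone on 9 of 21.

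The contrast in spacing was present in each width class. In the narrowest width class, the median gap was 5305 bp for factor-free and 7476.5 bp for factor-holding peaks. In the second class the medians were 4862 and 6779 bp, in the third 4795 and 6586 bp, and in the widest 5004 and 5674 bp. The factor-free median was the lower one on 19 of 21 chromosomes in the narrowest class and on all 21 in each of the others. Against peaks holding a factor other than NR2F2, the contrast was absent in the narrowest class, where the medians were 5305 bp without a factor and 5271 bp with one, and it was largest in the third class, at 4795 and 5677 bp.

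**Figure D2:**
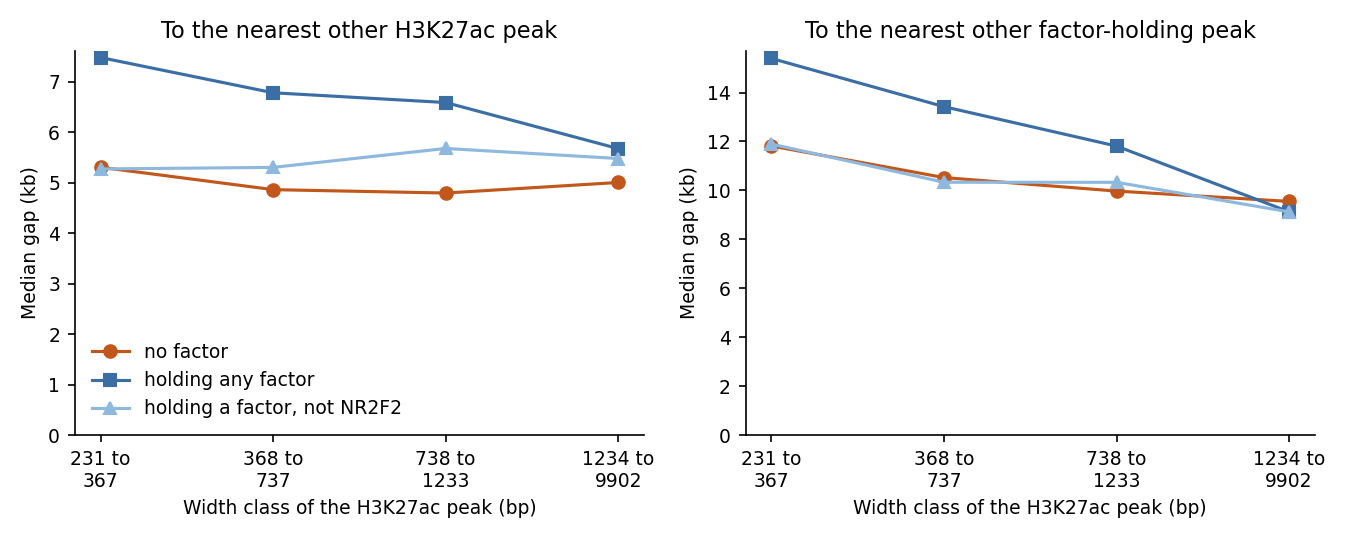
Median gap in kb to the nearest other H3K27ac peak (left) and to the nearest other factor-holding H3K27ac peak (right), by width class of the peak, for factor-free peaks (orange circles), peaks holding any factor (blue squares) and peaks holding a factor other than NR2F2 without NR2F2 (light blue triangles). In the narrowest class the left medians are 5305 bp for factor-free peaks, 7476.5 bp for peaks with any factor and 5271 bp for those without NR2F2.

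Factor-free peaks did not stand apart from the bound part of the genome. Their median gap to the nearest factor-holding H3K27ac peak was 10654 bp (quartiles 5505 and 22670 bp), against 11009 bp (5384 and 26096.5 bp) from a factor-holding peak to the nearest other one. The difference of -355 bp had its sign on 13 of 21 chromosomes and the opposite one on 8, so that no common direction was seen over all peaks. Within width classes there was one in all but the widest peaks. The medians for factor-free and factor-holding peaks were 11815.5 and 15392 bp in the narrowest class (lower without a factor on 18 of 21 chromosomes), 10526.5 and 13422 bp in the second (20 of 21) and 9975 and 11812 bp in the third (19 of 21). In the widest class they were 9552 and 9128 bp, and the factor-free median was the lower one on 10 of 21. Against peaks holding a factor other than NR2F2, with medians of 11894, 10335.5, 10332 and 9126 bp from the narrowest class to the widest, the direction changed from class to class. A factor-holding peak lay within 5 kb of 20.9% of factor-free peaks and within 5 kb of 20.8% of factor-holding ones, and within 50 kb of 90.5% and 87.6%. Gaps beyond 100 kb were found for 3.22% of factor-free and 4.87% of factor-holding peaks. The sign also depended on the lists used: without NR2F2 in the rule, factor-free peaks were 870 bp farther from the nearest factor-holding peak in the median.

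Compared with peaks holding a single factor, factor-free peaks were closest in median width to those with NR2F2 alone. In median gap to any other H3K27ac peak they were closest to those with YY1 alone, and in distance to the nearest other factor-holding peak to those with TEAD1 alone (10654 bp without a factor and 10673.5 bp with TEAD1 alone). The 6745 peaks with NR2F2 alone had a median width of 444 bp, and the factor-free median of 497 bp was the larger one on 20 of 21 chromosomes. Both groups were therefore narrow, but the median distance to the nearest other factor-holding peak was 10654 bp for factor-free peaks and 17711 bp for NR2F2 alone. The 4863 peaks with YY1 alone were wide (median 1034 bp) and lay 8903 bp from the nearest other factor-holding peak. Factor-free peaks were farther from such a peak than YY1-only peaks were on 20 of 21 chromosomes. Peaks with RXRG alone fell between, with a median width of 632 bp.

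Over all 99362 pairs of adjacent H3K27ac peaks, 49.0% of the single peaks were factor-free. No factor was in either peak in 25.9% of these pairs, and a factor was in both in 28.0%. The next H3K27ac peak was factor-free after 52.9% of factor-free peaks and after 45.2% of factor-holding ones, and the nearest peak on either side was factor-free for 56.1% of factor-free peaks and 46.0% of factor-holding ones. Pairs without a factor in either peak were most frequent at short gaps. Of the 5377 adjacent pairs less than 1500 bp apart, 40.4% had no factor in either peak and 17.9% had a factor in both. Between 1500 and 4000 bp the share without a factor in either was 38.8%. It was 26.7% between 4000 and 6000 bp and 24.6% between 6000 and 10000 bp. Beyond 50 kb it was 15.95%, and 38.1% of pairs there held a factor in both peaks. The factor-free share of the single peaks in these pairs also fell with the gap. It was 61.3% below 1500 bp, 58.9% from 1500 to 4000 bp, 49.0% from 6000 to 10000 bp and 38.9% beyond 50 kb. How far the fall in pairs goes beyond that in single peaks was not tested.

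The change along the gap was not gradual. In bins of 500 bp the share of pairs without a factor in either peak lay between 37.1 and 40.8% for gaps from 500 to 4000 bp, was 33.0% from 4000 to 4500 bp and 26.5% from 4500 to 5000 bp, and lay between 21.6 and 26.2% in every bin from 5000 to 20000 bp. The gaps themselves had 2 modes, with 4487 pairs from 1000 to 1500 bp and 4642 from 5000 to 5500 bp, against 2410 from 2500 to 3000 bp. No gap in the H3K27ac list was shorter than 925 bp, and how nearby calls were joined before deposit is not stated in the labels. The drop in pairs without a factor thus coincided with the second mode of the spacing. Whether peak calling takes part in both was not tested.

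**Figure D3:**
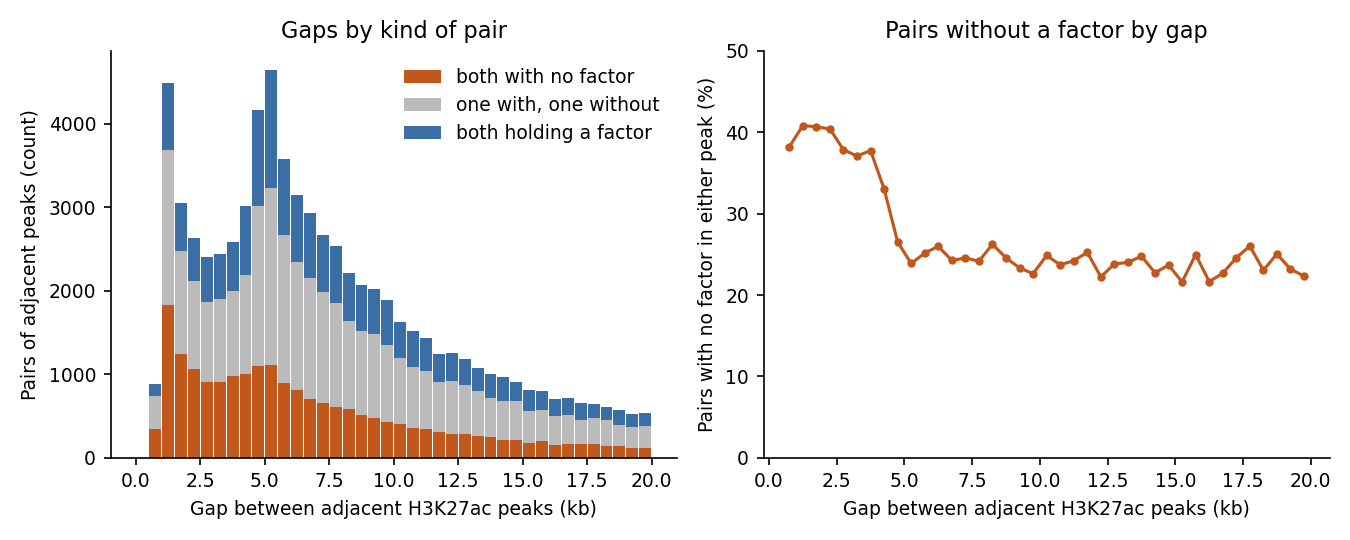
Left, number of adjacent H3K27ac pairs by gap in bins of 500 bp, stacked by pairs with no factor in either peak (orange), a factor in 1 of them (grey) or a factor in both (blue). Right, percentage of pairs with no factor in either peak. The share is 37.1 to 40.8% for gaps below 4000 bp and 21.6 to 26.2% from 5000 to 20000 bp.

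Pairs without a factor in either peak were more frequent at short gaps for wide as well as narrow peaks. Pairs in which both peaks were wider than the list median of 737 bp had no factor in either peak in 21.2% of cases below 4 kb and in 13.0% from 6 to 10 kb. For pairs with both peaks up to the median the shares were 55.1 and 46.8%. Among pairs with NR2F2 in neither peak they were 53.0 and 39.7%. The share was higher at the shorter gaps on 21 of 21 chromosomes for all pairs, for the wide pairs and for the pairs without NR2F2, and on 20 of 21 for the narrow pairs. These limits of 4, 6 and 10 kb were set after the gaps had been seen. The factor-free share of single peaks was not computed within these subsets. Grouping of factor-free peaks therefore cannot be told apart here from a higher factor-free share at short gaps.

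Gaps between close factor-free peaks held a factor peak of their own about as often as the gaps of other pairs. In pairs without a factor in either peak, a peak of at least 1 list lay wholly within the gap in 9.94% of 3412 pairs less than 2 kb apart, against 11.7% of 1531 such pairs with a factor in both. From 2 to 4 kb the shares were 14.4% and 14.0%, and from 4 to 6 kb 19.2% and 16.6%. Pairs with a factor in only 1 peak had shares of 11.2%, 13.9% and 18.2% over the same ranges. A factor peak that crosses the edge of an acetylated peak was not counted. By the rule such a peak can occur only in pairs that hold a factor, so the counts are not fully alike. Since the list holds no gap below 925 bp, a factor bound in a narrower gap between acetylated nucleosomes could not be seen in this way.

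Runs of factor-free peaks were mostly short. With consecutive peaks joined across gaps of up to 10 kb, the 48763 factor-free peaks formed 32603 runs. Of these peaks, 47.3% stood in a run of their own, 24.1% in runs of 2, and 28.6% in the 3678 runs of 3 or more. Only 24 runs held 10 or more peaks. Stitching all H3K27ac peaks across the same distance gave 46136 regions, of which 31.7% contained no factor-holding peak. That was so for 41.7% of regions made of 1 peak and for 8 of the 1742 regions with 8 or more peaks. A region of more peaks has more chances to hold a factor, and within those largest regions 52.9% of the single peaks were factor-free.

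The longest run, 15 peaks without a factor, was on chromosome 3 at 35071288 to 35143418, a span of 72131 bp. Its peaks were 236 to 3383 bp wide (median 808 bp) and summed to 13784 bp of acetylated sequence. A YY1 peak and a TEAD1 peak lay between its acetylated peaks without touching one, and no NR2F2 peak came within 56649 bp of the run. The second run of 15 peaks was on chromosome 6 at 40412021 to 40478359 (66339 bp, peaks of 231 to 2042 bp). It contained no S16 factor peak, but 2 nerve SREBP1 peaks lay between its acetylated peaks, and NR2F2 was nearest at 6771 bp. The third, of 14 peaks, was on chromosome 15 at 87936486 to 87988690 (52205 bp), with 1 TEAD1 peak between its acetylated peaks.

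**Figure D4:**
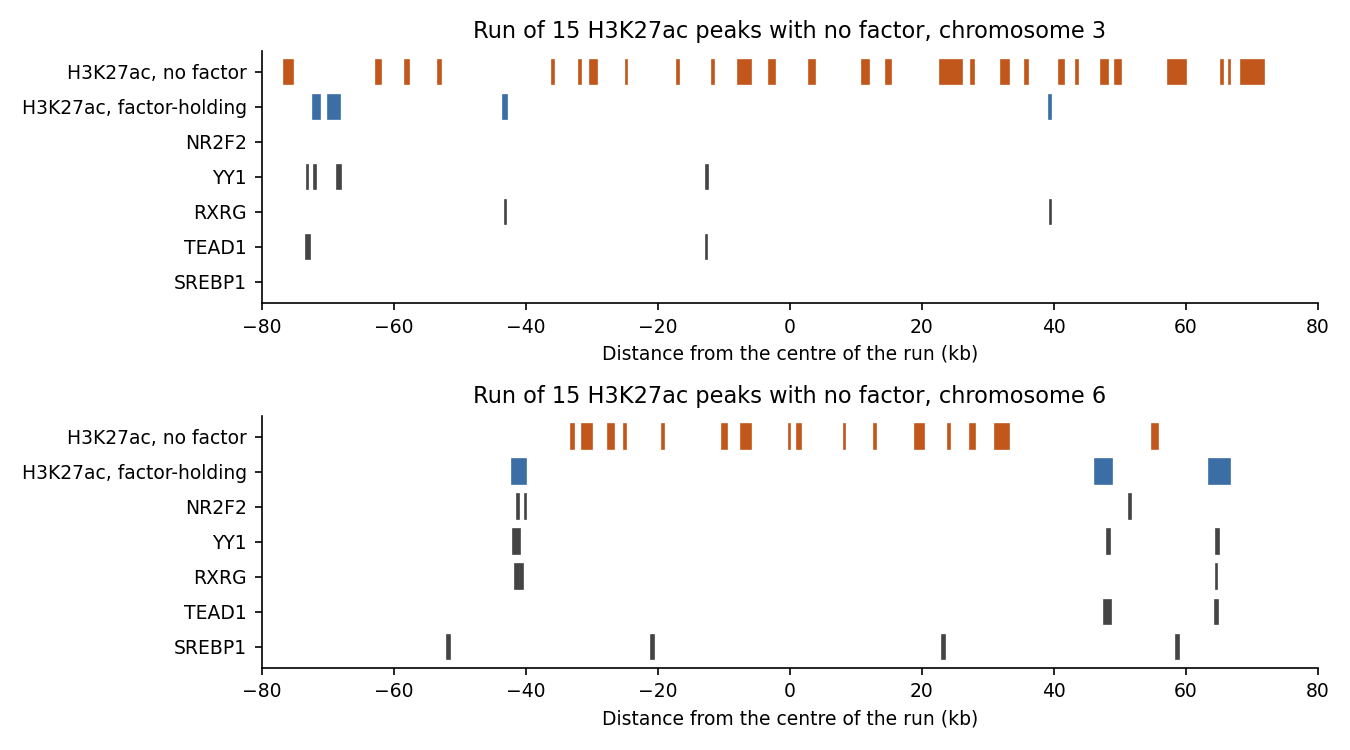
Peaks around the 2 longest runs of factor-free H3K27ac peaks, on chromosome 3 (top) and chromosome 6 (bottom), drawn to scale against the distance in kb from the centre of the run. Each row is 1 list, with H3K27ac peaks divided into those with no factor (orange) and those holding one (blue). Both runs have 15 orange peaks in succession between blue ones, and the factor peaks within them lie between acetylated peaks.

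At the other extreme were factor-free peaks far from any factor-holding peak. The farthest was a 415 bp peak on chromosome 10 at 24617996 to 24618410, 578845 bp from the nearest H3K27ac peak with a factor. Factor peaks outside acetylated chromatin were closer, with NR2F2 at 43709 bp and RXRG at 43757 bp. The second, on chromosome 3 at 182396817 to 182397772 (956 bp), was 559595 bp from a factor-holding peak but 7524 bp from an NR2F2 peak. The third was on X at 117740184 to 117740719 (536 bp), 546918 bp from a factor-holding peak, with RXRG nearest at 272738 bp.

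In crowded neighbourhoods more H3K27ac peaks lacked a factor. Of the 11708 peaks with no other H3K27ac peak within 25 kb of their midpoint, 38.1% were factor-free. The share was 44.9% with 1 to 2 others, 51.2% with 3 to 5 and 56.0% with 6 to 10. It was 58.4% in the 320 peaks with 11 to 15. Peaks with at least 6 others were more often factor-free than those with 0 on 21 of 21 chromosomes, by 5.99 to 28.4 percentage points. Up to 10 others this ran against width, since peaks with 6 to 10 others were wider (median 827 bp) than lone ones (527 bp). The median width was 566.5 bp with 11 to 15 others. Within each width class the share was also higher with 6 to 10 others than with none. It was 82.0 and 58.1% in the narrowest class and 67.1 and 31.6% in the second. In the third it was 57.1 and 26.2%, and in the widest 27.7 and 19.6%. With 11 to 15 others the shares were 73.1, 62.2, 58.9 and 31.4% from the narrowest class to the widest.

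Up to 10 others, the share of peaks with NR2F2 ran the opposite way. NR2F2 was present in 44.2% of lone H3K27ac peaks, in 31.5% with 1 to 2 others, in 20.4% with 3 to 5 and in 17.4% with 6 to 10. RXRG changed in the same direction, from 29.3% to 15.6%. YY1 was in 25.6% of lone peaks, in 33.3% with 3 to 5 others and in 29.5% with 6 to 10. The shares in the same classes were 15.6, 20.3 and 18.8% for TEAD1 and 10.6, 17.2 and 12.9% for SREBP1. In the small class with 11 to 15 others NR2F2 was in 24.1% of peaks and RXRG in 19.1%, both above the class before it. Among H3K27ac peaks without NR2F2, the factor-free share showed no steady course: 68.3% for lone peaks, 65.5% with 1 to 2 others, 64.3% with 3 to 5, 67.8% with 6 to 10 and 77.0% with 11 to 15.

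**Figure D5:**
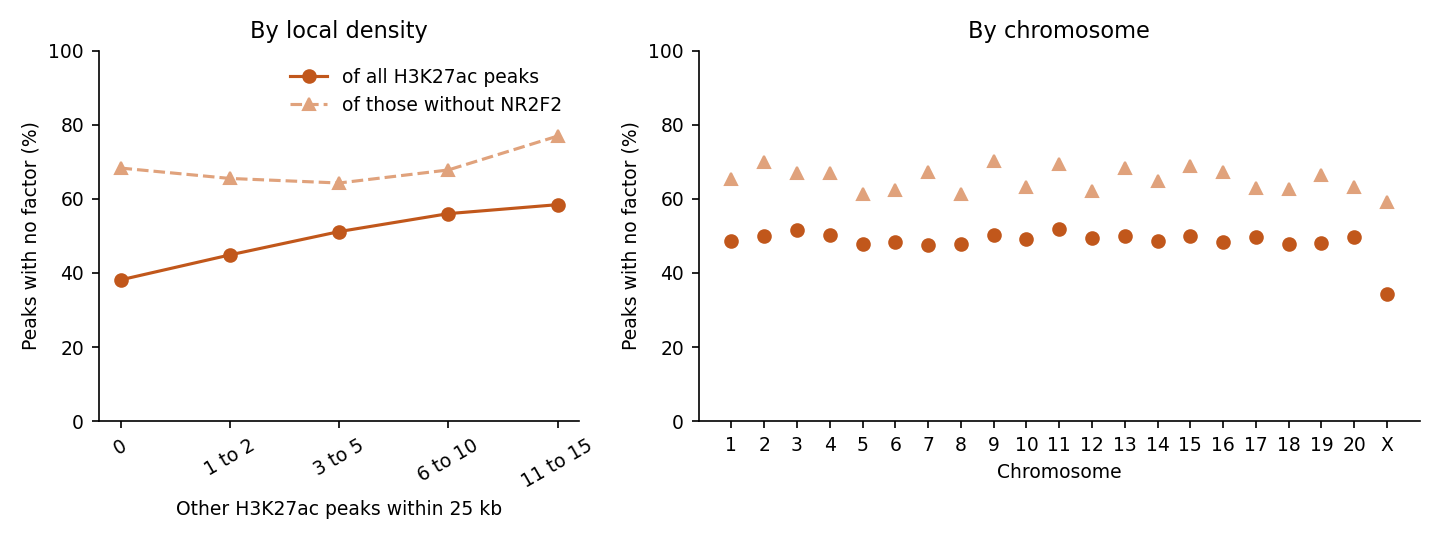
Percentage of H3K27ac peaks with no factor by the number of other H3K27ac peaks within 25 kb (left) and by chromosome (right), among all peaks (circles) and among peaks without NR2F2 (triangles). Among all peaks the share is 38.1% for lone peaks and 56.0% with 6 to 10 others, and X, at 34.4%, lies below every autosome (47.5 to 51.9%).

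The autosomes were alike and X differed from them. Factor-free peaks were 47.5% (chromosome 7) to 51.9% (chromosome 11) of the H3K27ac peaks on the 20 autosomes, with a median of 49.3%, and 34.4% (776 of 2257) on X. In the narrowest width class the share was 54.5% on X, against 70.2 to 78.3% on the autosomes, and in the widest class 14.6% against 22.3 to 28.6%. NR2F2 was in 41.8% of the H3K27ac peaks of X and in 20.3 to 29.3% of those of an autosome, and RXRG in 27.4% against 17.8 to 23.0%. YY1, TEAD1 and SREBP1 on X lay within the range of the autosomes. Among peaks without NR2F2, 59.1% were factor-free on X, against 61.2 to 70.1% on the autosomes. Acetylated peaks on X were also sparser, with a median gap of 12936 bp against 5026.5 to 6472 bp, and narrower, at 599 bp against 671 to 858.5 bp. The part of copy number or of mapping in the X values was not tested. On sequences not placed on a chromosome, 113 of 164 peaks (68.9%) held no factor.

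Near misses were a minority of factor-free peaks, and the matching share for other intervals of the genome was not computed. By the rule no factor peak overlapped these regions, and the nearest peak of any list was 5584 bp away in the median. It lay within 1 kb of 5797 factor-free peaks (11.9%), within 500 bp of 3572 (7.33%) and within 50 bp of 591 (1.21%). Within 500 bp, SREBP1 was the most frequent (1265 peaks), then TEAD1 (945), RXRG (819), YY1 (747) and NR2F2 (431). Over all distances RXRG, the largest list, was nearest for 29.0% of factor-free peaks, SREBP1 for 21.6%, YY1 for 20.9%, NR2F2 for 18.1% and TEAD1 for 10.4%, with ties counted for each list.

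Peaks on either side of the rule looked alike. The 591 factor-free peaks with a factor within 50 bp had a median width of 525 bp and a median gap of 4944 bp to the nearest H3K27ac peak. The 722 factor-holding peaks whose largest overlap was at most 50 bp had a median width of 466.5 bp and a median gap of 5298 bp. They were 1.42% of the factor-holding group, in which the largest overlap had a median of 406 bp. Few assignments therefore rested on the last 50 bp of an edge.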

How the data were processed

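Positions are on build rn5, and MACS2, Bowtie2, deepTools, bedtools and bcl2fastq (2.20.0.422) were used, per the submitters' processing notes, which give no settings or thresholds. There was 1 library per target. The deposited lists give chromosome, start and end. The score of the SREBP1 list does not vary and was not used. The 2 mitochondrial H3K27ac peaks were dropped. Overlap meant at least 1 bp, and gaps were counted between edges. The members and comparisons were chosen with earlier results of these data known. Named by rule were the 5 widest factor-free peaks, the 3 longest runs across gaps of up to 10 kb and the 3 peaks farthest from a factor-holding one. Without replicates no test was made, so medians, quartiles and the number of chromosomes with the same direction are given. Intervals are at 95% and treat peaks as independent, which neighbouring peaks are not. Functions were checked on simulated intervals. Stretches without peaks in any list were not analysed here. Python 3.11.15, NumPy 2.4.6, pandas 2.3.3, SciPy 1.17.1 and Matplotlib 3.10.9 were used.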

Additional observations from a re-analysis of the deposited data

How the results depend on the processing

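The share of factor-free peaks (49.0%), the difference in median width (-483 bp, factor-free minus factor-holding), the difference in median gap to the nearest peak (-1167 bp) and that to the nearest factor-holding peak (-355 bp) were recomputed under 10 alternatives each. Of the 30 values of the 3 differences, 28 kept their sign. For the nearest factor-holding peak 8 of 10 did, but several of these had intervals that held both signs. They were -225 bp (-519 to 102) with 50% of the shorter peak and -183 bp (-472 to 129) with the factor midpoint. The S16 lists alone gave -301.5 bp (-582 to 42), and factor peaks wider than their list's median gave -117 bp (-544 to 285). Of all 40 values, 17 stayed within the 95% interval of the original value. Both reversals concerned the nearest factor-holding peak. They were 228 bp (-94 to 535) with H3K27ac peaks joined across up to 4 kb and 870 bp (545 to 1210) without the NR2F2 list. Joining changes which peaks count as neighbours, and the cause was not tested. Requiring 50% of the shorter peak gave a share of 51.7% and a width difference of -506 bp, and requiring the factor midpoint gave 52.2% and -520 bp. Extending factor peaks by 500 bp gave 45.4%, -452 bp and a gap difference of -1030 bp. Factor peaks wider than their list's median (SREBP1 left whole) gave 61.8%, -518 bp and -1273.5 bp. Joining across 1 kb gave a share of 48.7%, and the S16 lists alone 51.6%. Joining across 4 kb gave 41.6%, -617 bp and -247 bp, leaving the NR2F2 list out gave 55.8%, -581 bp and -801 bp, and leaving out H3K27ac peaks of up to 250 bp gave 46.0%, -410 bp and -1318.5 bp. These last 3 alternatives were chosen after seeing the data. The gap difference is thus small once close peaks are joined. No paired analysis was possible because each target has 1 sample. How sequencing depth, which is unknown, bears on which peaks lack a factor was not tested.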

Other observations

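Gaps near 5 kb were frequent in the factor lists as well. Among NR2F2 peaks, 1848 adjacent pairs were 5 to 6 kb apart, against 564 from 3 to 4 kb and 793 from 7 to 8 kb. The counts for these 3 ranges were 1278, 752 and 1047 for YY1, 1379, 795 and 1210 for RXRG, 697, 410 and 530 for TEAD1, and 8218, 5033 and 5214 for H3K27ac. SREBP1 had 717, 140 and 768, with no decline at the longer gaps. The cause was not tested.

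The nearest H3K27ac peak was factor-free for 40.9% of the 14460 NR2F2 peaks outside H3K27ac and for 43.2% of 6222 such TEAD1 peaks. The shares were 46.0% of 14332 SREBP1, 47.4% of 25377 RXRG and 47.9% of 5259 YY1 peaks outside H3K27ac. Of such peaks within 1 kb of an H3K27ac peak, the nearest was factor-free for 56.6% of YY1 and 52.5% of RXRG peaks. It was factor-free for 49.0% of TEAD1, 46.5% of NR2F2 and 46.5% of SREBP1 peaks. Factor-free peaks made up 49.0% of the H3K27ac list, which is not the share to expect for a nearest peak. Factor-holding peaks had longer gaps around them (median 6183.5 against 5016.5 bp), and the share at arbitrary positions was not computed.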
